A study of Bos taurus with 8 samples.

Results

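The genes described are 9 members of the pericellular proteolysis systems, the enzymes that cut the extracellular matrix and the proteins that restrain or localise them. They are the matrix metalloproteases MMP2, MMP14 and MMP15, the tissue inhibitors of metalloproteases TIMP1, TIMP2 and TIMP3, the plasminogen activators PLAU and PLAT, and the urokinase receptor PLAUR. They were chosen by name, with earlier results of these data known. All 9 are among the 32640 genes of the count file and passed the filter on low counts. Counts per gene came from 4 bovine embryonic stem cell (bESC) lines, A, C, D and E, all recorded as XX, derived from early or full blastocysts and kept in NBFR medium, which contains FGF2 and a WNT inhibitor. Each line was sequenced after adaptation to 5% O2 on MEF, a feeder layer of mouse embryonic fibroblasts, at passage 15 to 17, and again after transfer to feeder-free culture on vitronectin in 5% O2, at passage 20 to 22. This gave 4 libraries per condition. Passage, feeder cells and matrix changed together and cannot be told apart, and the sources differ on whether Activin A was added in feeder-free culture alone or in both conditions.

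Vitronectin is an adhesive glycoprotein, so that the plasminogen activator system has a particular place in this comparison: PLAUR, which holds urokinase at the cell surface, also binds vitronectin. Plasmin, made from plasminogen by either activator, degrades fibrin and several matrix proteins and activates some metalloproteases. Metalloproteases are made as inactive precursors. Among them MMP14, anchored in the plasma membrane, activates the precursor of MMP2 in a complex that also contains TIMP2, and TIMPs block the active enzymes by binding their catalytic zinc site. In embryonic stem cell culture, feeder cells deposit matrix and secrete proteases and inhibitors of their own.

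Depth was 44268717 to 54296425 counts per MEF library and 49671478 to 102351560 per feeder-free library, the deepest being line D on vitronectin. Together the 9 genes took 0.0686% to 0.110% of the counts of a library. As a check of the label, 6 markers of pluripotent bESCs (POU5F1, SOX2, NANOG, LIN28B, SALL4 and DNMT3B) summed to 4282 to 5053 CPM on MEF and 3749 to 4534 CPM on vitronectin, with POU5F1 the largest term of each sum. SOX2, NANOG, LIN28B and SALL4 had lower CPM on vitronectin in 4 of 4 lines, as did 20.7% of all genes tested. For all of these but NANOG the conditions did not overlap, and 8.36% of all genes tested lay below on vitronectin in this way. SALL4 came nearest to a call, with a log2 fold change of -0.58 (edgeR adjusted p = 0.0426, and 0.00614 with line as a term), short of 1.5-fold, and 0 of the 6 passed in either fit. Of the markers of other lineages, FOXA2 (endoderm) had 2.90 to 14.0 CPM and KRT7 (trophoblast) 19.0 to 113 CPM, and the other genes of both lists had at most 3.16 CPM. The feeder-free library of line D was the highest for several of the genes below, so values without it are given. In bulk RNA a change in the number of cells of a type and a change in RNA per cell cannot be told apart. CPM are counts scaled to the size of each library, corrected by the TMM method, and SE is the standard error of a fitted log2 fold change. They are compared below for the same gene between libraries and not between genes, because exon lengths were not used here. Gene positions are on ARS-UCD2.0.

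Which of the 9 genes differed between bESCs on vitronectin and bESCs on MEF depended on whether the lines were paired. With pairing, the inhibitors TIMP2 and TIMP3 and the activator PLAU were higher in feeder-free conditions, while MMP2, MMP14 and MMP15 passed in neither fit. In edgeR's quasi-likelihood test on condition alone, 0 of the 9 passed an adjusted P-value under 0.05 with a fold change of at least 1.5, where 1.73% of the 15744 genes tested did (0.724% higher and 1.00% lower). At an unadjusted P-value under 0.05 there were 5 of 9 (TIMP1, TIMP2, TIMP3, PLAU and PLAUR), against 21.6% of all genes. With line as a paired term (replicate block), 3 of 9 passed, TIMP2, TIMP3 and PLAU, all higher, against 5.52% of all genes called higher, and 0 of 9 passed as lower, against 4.53%. TIMP1, TIMP2, TIMP3 and PLAU were higher in 4 of 4 lines, as were 20.2% of all genes, and 0 of the 9 were lower in 4 of 4 lines, as were 20.7%. Unpaired log2 fold changes were above 0 for 7 of the 9 genes and for 50.6% of all genes. Their median was 0.46 over the 9 genes and 0.01 over all genes tested. Because the 9 genes were chosen with earlier results of these data known, these shares and medians are a description and not a test.

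**Figure D1:**
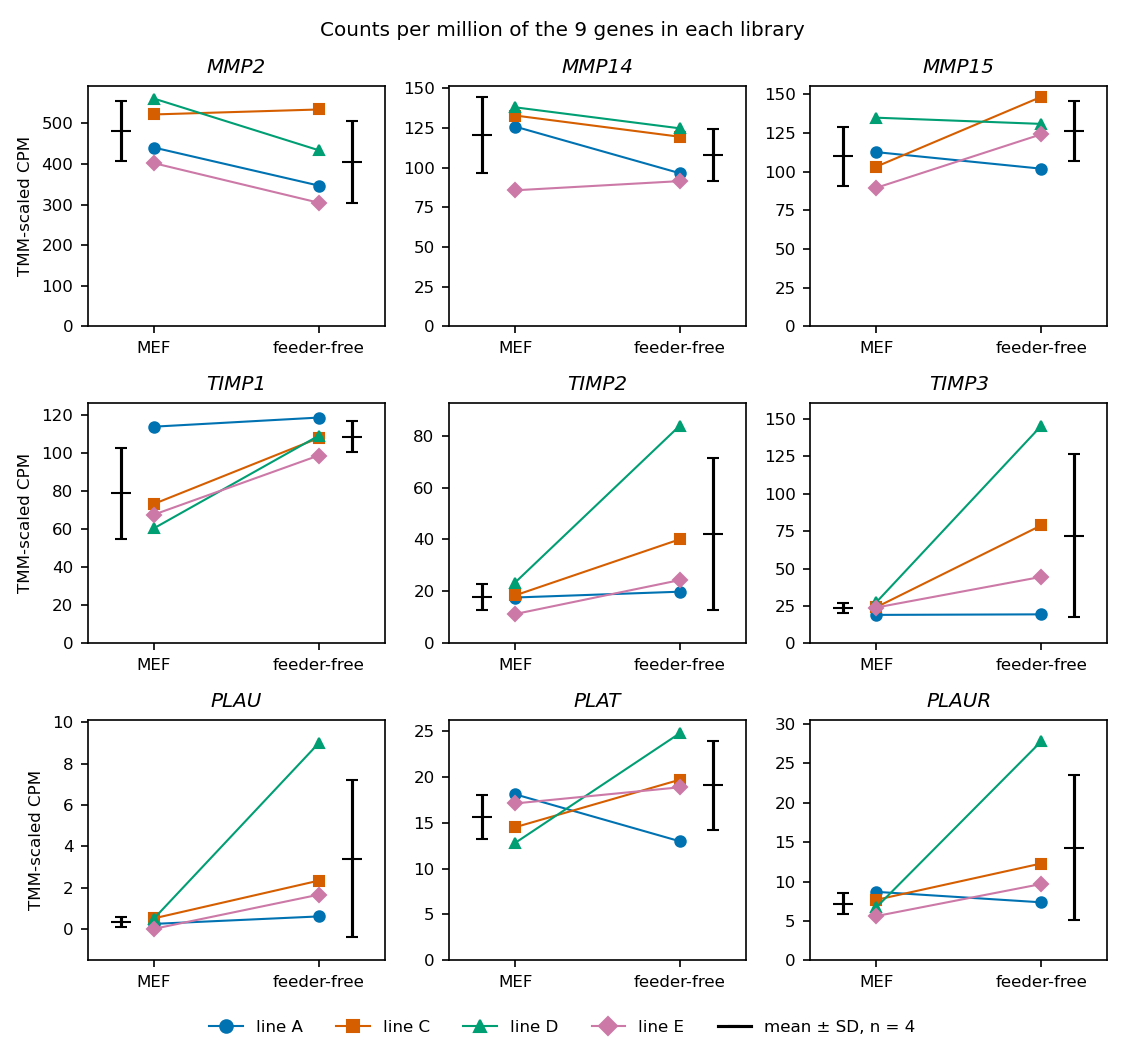
Each panel plots the TMM-scaled CPM of a gene (linear axis) in the MEF and the feeder-free library of lines A, C, D and E, joined by line, with the mean ± SD of 4 libraries beside each condition. TIMP2, TIMP3, PLAU and PLAUR fan out in feeder-free conditions, with line D on top (83.8, 145, 8.99 and 27.7 CPM) and line A at the bottom, whereas the lines of MMP2 and MMP14 run level or slightly down.

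The metalloproteases had log2 fold changes of -0.25 to 0.20, and none passed in either fit. MMP2, a secreted gelatinase that cleaves type IV and denatured collagens, on chromosome 18 from 23753066 to 23779474, had 441, 522, 561 and 402 CPM on MEF in lines A, C, D and E, and 347, 534, 434 and 305 CPM in feeder-free conditions. It was lower in feeder-free conditions in 3 of 4 lines and about level in line C, and the conditions overlapped. Its log2 fold change was -0.25 (SE 0.20, edgeR adjusted p = 0.508) and -0.27 with line as a term (edgeR adjusted p = 0.124).

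MMP14, the membrane-anchored activator of MMP2, on chromosome 10 from 21969250 to 21977729, had 126, 133, 138 and 85.7 CPM on MEF in lines A, C, D and E. In feeder-free conditions it had 96.5, 119, 125 and 91.5 CPM. It was lower in lines A, C and D and slightly higher in line E, which was the lowest library in both conditions. Its log2 fold change was -0.16 (SE 0.17, edgeR adjusted p = 0.657) and -0.15 with line as a term (SE 0.11, edgeR adjusted p = 0.4). The span of MMP14 overlaps that of RBM23 (20.0 to 30.7 CPM on MEF, 23.0 to 33.0 CPM without feeders). Whether reads were counted by strand is not given, so the counts of overlapping genes may be mixed.

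MMP15, a further membrane-type metalloprotease, on chromosome 18 from 25939947 to 25960720, had 113, 103, 135 and 89.5 CPM on MEF and 102, 148, 131 and 124 CPM in feeder-free conditions, in the same order of lines. The lines disagreed: C and E were higher at log2 ratios of 0.52 and 0.47, and A and D lower at -0.14 and -0.04. Its log2 fold change was 0.20 (SE 0.16, edgeR adjusted p = 0.522) on condition alone. With line as a term it was 0.20 (SE 0.14, edgeR adjusted p = 0.345). For these 3 proteases no difference passed the thresholds in either fit.

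Among the inhibitors, TIMP1, a secreted inhibitor that acts poorly on membrane-type metalloproteases, lies on the X chromosome from 85939719 to 85943558, inside the span of SYN1. It had 114, 73.3, 60.5 and 67.6 CPM on MEF in lines A, C, D and E, and 119, 108, 109 and 98.7 CPM in feeder-free conditions. The MEF library of line A already stood at the feeder-free level, while the other MEF libraries were lower, and the feeder-free values lay close together at 109 ± 8.15 CPM (SD, n = 4). The log2 fold change was 0.46 (SE 0.19, edgeR adjusted p = 0.201). With line as a term it was 0.50 (SE 0.14, edgeR adjusted p = 0.0342), past the P-value threshold but under the fold change of 1.5. SYN1 itself had 32.1 to 47.0 CPM on MEF and 26.7 to 41.5 CPM on vitronectin.

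TIMP2, which both inhibits MMP14 and takes part in the activation of MMP2, on chromosome 19 from 53460835 to 53512593, had 17.7, 18.5, 23.4 and 11.3 CPM on MEF in lines A, C, D and E. In feeder-free conditions it had 19.9, 40.1, 83.8 and 24.4 CPM. Line D was the highest in both conditions, and line A hardly differed between them. Within lines the feeder-free level was 1.13, 2.17, 3.58 and 2.16 times that on MEF. The log2 fold change was 1.25 (SE 0.43, edgeR adjusted p = 0.138) on condition alone and 1.07 (SE 0.23, edgeR adjusted p = 0.0146) with line as a term.

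TIMP3, an inhibitor that stays bound to the extracellular matrix and also acts on ADAM proteases, lies on chromosome 5 from 71402333 to 71459972. It had 19.0, 24.2, 27.5 and 24.0 CPM on MEF, a narrow range, and 19.4, 78.7, 145 and 44.4 CPM in feeder-free conditions. Every line but A was above all the MEF libraries. Within lines A, C, D and E the ratios of feeder-free to MEF were 1.02, 3.26, 5.28 and 1.85. The log2 fold change was 1.60 (SE 0.50, edgeR adjusted p = 0.108) on condition alone and 1.27 (SE 0.32, edgeR adjusted p = 0.0266) with line as a term. The span of TIMP3 lies within that of SYN3, whose counts went the other way in each line, from 6.79 to 12.1 CPM on MEF to 2.41 to 6.12 CPM in feeder-free conditions.

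The within-line ratios of the 3 TIMPs were thus lowest in line A and highest in line D. For TIMP2 and TIMP3 the feeder-free library of line D carried much of this. Without that library, the log2 fold changes on condition alone were 0.67 for TIMP2 and 1.01 for TIMP3. That of TIMP1 was 0.46 with or without it, and TIMP1 varied by line mainly on MEF. Without line D altogether, the paired fit gave 0.80 for TIMP2 (edgeR adjusted p = 0.0571) and 0.88 for TIMP3 (edgeR adjusted p = 0.0775), so that neither passed. Without line C neither passed, while the fold changes moved less, to 1.06 for TIMP2 (edgeR adjusted p = 0.0618) and 1.12 for TIMP3 (edgeR adjusted p = 0.113). TIMP3 also missed the threshold without line E, at 1.42 (edgeR adjusted p = 0.0542). Without line A both passed, and so did TIMP1.

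**Figure D2:**
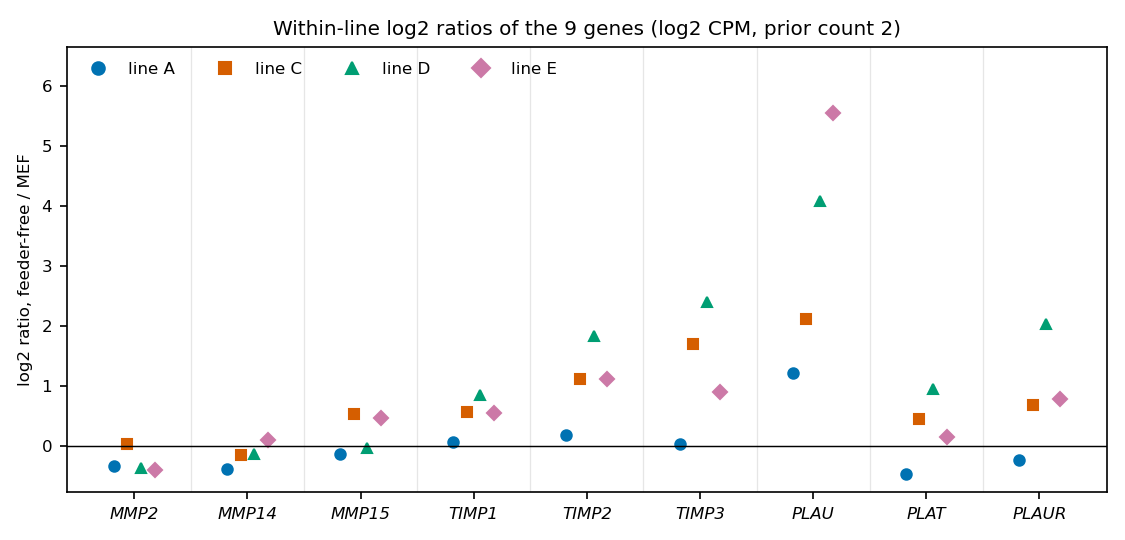
The log2 ratio of feeder-free to MEF (log2 CPM with a prior count of 2) is plotted for each gene, with 1 point per line and a horizontal line at no difference. Line D has the highest ratio for TIMP1, TIMP2, TIMP3, PLAT and PLAUR, line A has the lowest for all genes except MMP2, and the point of line E for PLAU rests on a MEF count of 0.

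Of the plasminogen activators, PLAU passed with line as a term and PLAT passed in neither fit. A difference between these genes was not tested. PLAU encodes urokinase, which generates plasmin at the cell surface, and lies on chromosome 28 from 29793733 to 29799834. Its raw counts on MEF were 10, 28, 24 and 0 in lines A, C, D and E, and in feeder-free conditions 30, 124, 920 and 86. On the CPM scale this was 0.240, 0.508, 0.496 and 0 against 0.602, 2.34, 8.99 and 1.65. Every feeder-free library was above every MEF library, which held for 6.21% of all genes tested (8.36% lay below in the same way), and PLAU was the only gene of the 9 without overlap. Within lines the ratio was 2.51 in A, 4.59 in C and 18.1 in D. In line E the MEF count was 0, and set against 3 counts in its place the ratio was 24.4. That value takes each count as a separate fragment. Whether reads or pairs were counted is not given, so it is not a firm lower bound.

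The log2 fold change of PLAU was 3.43 (SE 1.05, edgeR adjusted p = 0.106) on condition alone and 3.20 (SE 0.68, edgeR adjusted p = 0.0149) with line as a term. PLAU passed the paired fit without line A, C or E, but not without D (log2 fold change 2.79, adjusted p = 0.0855). Its presence among the tested genes rests mainly on the feeder-free libraries, where it is higher. PLAT, the tissue-type activator, on chromosome 27 from 37053712 to 37077724, had 18.1, 14.5, 12.8 and 17.1 CPM on MEF in lines A, C, D and E, and 13.0, 19.7, 24.7 and 18.8 CPM in feeder-free conditions. It was lower in line A and higher in the others, by a log2 ratio of 0.95 in D and 0.14 in E. Its log2 fold change was 0.29 (SE 0.21, edgeR adjusted p = 0.477) and 0.27 with line as a term (SE 0.21, edgeR adjusted p = 0.418).

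PLAUR, the receptor that concentrates urokinase on the cell surface, on chromosome 18 from 51865096 to 51878376, had 8.69, 7.68, 6.73 and 5.62 CPM on MEF in lines A, C, D and E. In feeder-free conditions it had 7.36, 12.3, 27.7 and 9.68 CPM. Lines C, D and E were above all MEF libraries and line A was not. The log2 fold change was 0.99 (SE 0.39, edgeR adjusted p = 0.178) on condition alone and 0.82 (SE 0.31, edgeR adjusted p = 0.0975) with line as a term, short of the threshold in both. Without line A it passed the paired fit, at 1.17 (edgeR adjusted p = 0.0307), and without the feeder-free library of line D the unpaired value was 0.45. The genes whose spans overlap PLAUR, PLAT and TIMP2, that is LOC512005, LOC132344067 and CEP295NL, had at most 15, 5 and 4 counts in any library.

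**Figure D3:**
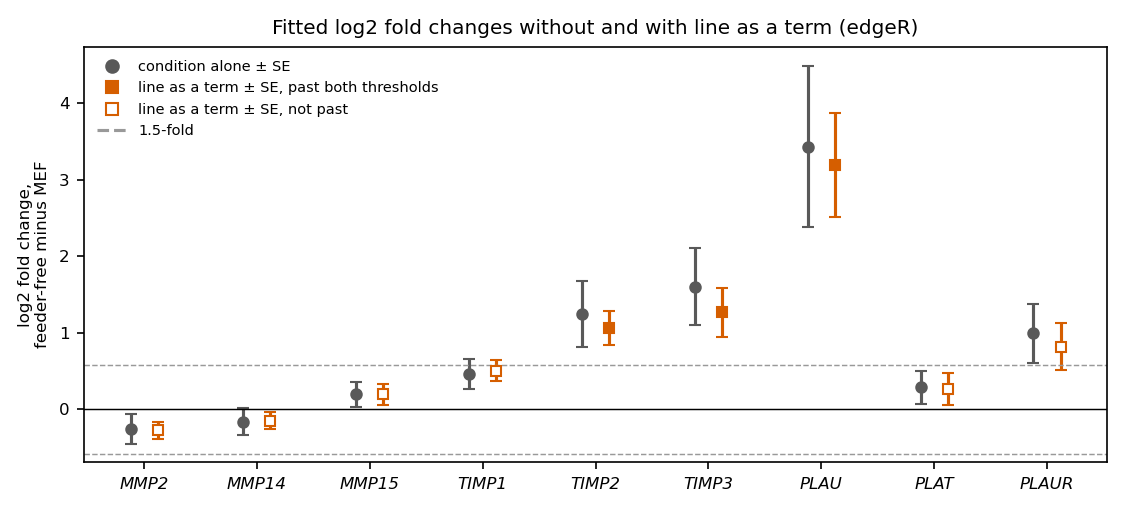
Fitted log2 fold changes from edgeR, feeder-free minus MEF, are shown with their standard errors for the 9 genes, on condition alone (circles) and with line as a term (squares, filled where both thresholds were passed). The standard error of TIMP2 goes from 0.43 to 0.23 and that of TIMP3 from 0.50 to 0.32 when line is a term, and TIMP2, TIMP3 and PLAU are the filled squares.

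The lines kept a common order across several of these genes. In feeder-free conditions TIMP2, TIMP3, PLAU, PLAT and PLAUR all increased in the order A, E, C, D. That order was read from these values, so its count is a description: it held for 5 of the 9 genes, for 10 of the 61 tested genes of the other protease lists and for 11.8% of all genes tested. On MEF the same genes had no common order: the lowest library was that of line E for TIMP2, PLAU and PLAUR, that of line A for TIMP3 and that of line D for PLAT. The sum of a list of markers of fibroblasts or mesenchyme rose in the same order. The 14 genes of that list summed to 252, 389, 852 and 1243 CPM in feeder-free lines A, E, C and D, and to 442 to 553 CPM on MEF. COL1A1 was the largest term of each sum, at 115, 283, 597 and 1033 CPM in those feeder-free libraries. COL3A1, POSTN and PRRX1 also rose in that order, and the other genes of the list, such as LUM, PDGFRB, THY1 and TWIST1, did not.

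The list was not of a piece, however. Of its 13 tested genes, 0 passed on condition alone (4 at an unadjusted P-value under 0.05 in edgeR's test), and with line as a term COL3A1 and POSTN passed as higher and COL1A2 and PRRX1 as lower. COL1A2, a defining collagen chain of fibroblasts, was at 0 to 0.414 CPM in feeder-free conditions and at 0.680 to 4.65 CPM on MEF. FAP, too low to be tested, had a count of 0 in all 4 feeder-free libraries and 0, 4, 0 and 6 on MEF in lines A, C, D and E. Among the 4 trophoblast markers KRT7 passed with line as a term (log2 fold change 1.46, edgeR adjusted p = 0.0129), and the list summed to 20.7 to 36.7 CPM on MEF and 41.1 to 113 CPM in feeder-free conditions. EOMES, of the mesoderm list, passed as well, with 0.770 to 6.69 CPM on MEF and 6.26 to 9.53 CPM on vitronectin (log2 fold change 1.61 with line as a term, edgeR adjusted p = 0.0307), and that list of 4 measured genes summed to 0.815 to 6.90 and 6.40 to 10.3 CPM. CSF1R, of the leukocyte list, passed at levels of at most 0.821 CPM (2.34, edgeR adjusted p = 0.0371). No tested gene of the endoderm or endothelium list passed, and these summed to 3.69 to 14.0 and 0.264 to 1.11 CPM on MEF, and to 3.13 to 5.19 and 0.943 to 2.53 CPM on vitronectin. The part of such cells in the values of TIMP2, TIMP3, PLAU and PLAUR was not tested.

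The genes whose log2 CPM followed a member most closely over the 8 libraries, among all genes tested, were taken for the 3 members with the largest fold changes. For PLAU they included TMEM53 and ADGRE5 (Pearson's r of 0.992 and 0.991). The log2 CPM of PLAU on MEF in line E, -4.80, rests on a count of 0 and weighs on these correlations. TPBG, PRSS23, which encodes a secreted serine protease, and DDAH1 were closest to TIMP3 (0.991, 0.990 and 0.989), and PLCB4, SYTL2 and GALNT10 to TIMP2 (0.992, 0.990 and 0.987). These values describe 8 libraries that share 4 lines and include the high feeder-free library of line D, and each is the highest of a search over all tested genes.

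Around the 9 genes, 91 others of the same protease systems were listed, also with earlier results of these data known. Of these, 86 are in the count file and 61 were tested. On condition alone 2 of the 61 passed, both higher, SERPINE2 and CST6, where 1.73% of all genes tested passed, and 16 had an unadjusted P-value under 0.05 in edgeR's test, against 21.6% of all genes. With line as a term 9 were higher and 2 lower, against 5.52% and 4.53% of all genes, and the median log2 fold change on condition alone was 0.28, against 0.01 over all genes. SERPINE2, protease nexin, which inhibits urokinase, plasmin and thrombin, on chromosome 2 from 112087763 to 112158698, had 58.9, 34.8, 47.5 and 56.4 CPM on MEF in lines A, C, D and E, and 86.2, 76.7, 107 and 87.7 CPM in feeder-free conditions. All feeder-free libraries were above all MEF libraries, as for 7 of the 61 genes and 6.21% of all genes tested. The log2 fold change of SERPINE2 was 0.85 (SE 0.18, edgeR adjusted p = 0.0493). CST6, a cystatin that inhibits lysosomal cysteine proteases, on chromosome 29 from 44101083 to 44102573, had 5.69 to 7.33 CPM on MEF and 8.93 to 15.3 CPM on vitronectin, a difference of 1.01 on the log2 scale (edgeR adjusted p = 0.0486). Neither passed the unpaired fit when any 1 library was left out.

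Plasminogen itself (PLG) had a count of 0 in all 8 libraries, as had the inhibitors SERPINB2 and TFPI2 (named for this after their values were seen). If each count was a separate fragment, this leaves room for up to 0.0293 to 0.0720 CPM depending on the library.

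ANXA2 and S100A10, which form a complex that binds plasminogen, were looked at after their values were seen. ANXA2 had 172 CPM in the feeder-free library of line D and 0.924 to 1.57 CPM in the other feeder-free libraries, and on MEF 13.5 CPM in line D against 0.363 to 1.10 CPM. Line D was thus the highest in both conditions. S100A10 had 5.69 CPM in the same feeder-free library and 0.0770 to 1.73 CPM in the others. Neither gene passed in either fit. Within lines A, C, D and E the log2 ratios of ANXA2 were 0.49, 1.48, 3.67 and 0.25. It was thus higher in 4 of 4 lines, as were 20.2% of all genes. Without the feeder-free library of line D, but with its MEF library kept, the unpaired log2 fold change of ANXA2 went from 3.48 to -1.73. That of S100A10 went from 1.25 to -0.30. With line as a term S100A10 was at -0.091. ANXA2 was at 1.78 (edgeR adjusted p = 0.0518), and at 0.76 to 2.39 with a whole line left out. It passed without line A and without line E (edgeR adjusted p = 0.0394 and 0.0400).

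Of the metalloproteases other than MMP2, MMP14 and MMP15, 7 of 19 listed were tested, and with line as a term 2 passed, MMP3 and MMP25, both higher. MMP3, stromelysin, which degrades proteoglycans and fibronectin and activates other metalloproteases, lies on chromosome 15 from 5779177 to 5785763. Its raw counts were 0, 8, 40 and 2 on MEF in lines A, C, D and E, and 32, 641, 4812 and 156 in feeder-free conditions. Every line was higher without feeders, by 83.1-fold in C and 56.9-fold in D. Line A on vitronectin, at 0.642 CPM, was still below the MEF library of line D, at 0.826 CPM. The log2 fold change was 6.04 (SE 0.28, edgeR adjusted p = 2.04e-05) with line as a term and 5.92 (SE 1.51, edgeR adjusted p = 0.0671) on condition alone. Like PLAU, MMP3 was kept by the filter on low counts mainly through the feeder-free libraries, where it is higher, and its fitted fold change depends on MEF counts at or near 0.

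MMP25, a metalloprotease held at the membrane by a lipid anchor, on chromosome 25 from 2476645 to 2488442, had 118, 148, 185 and 117 CPM on MEF and 198, 258, 408 and 201 CPM in feeder-free conditions. Feeder-free libraries were all above the MEF libraries, as for 6.21% of all genes tested. The lines agreed closely, at log2 ratios of 0.74, 0.81, 1.14 and 0.78. Its log2 fold change was 0.87 (SE 0.11, edgeR adjusted p = 0.00196) with line as a term and 0.91 (edgeR adjusted p = 0.0860) on condition alone. MMP12 and MMP13, too low to be tested and named after their values were seen, had no counts on MEF and some on vitronectin, MMP12 with 84 in line D and MMP13 with 6 in line C and 52 in line D.

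TIMP4, the remaining TIMP, had 2 to 11 counts on MEF and 14 to 106 in feeder-free conditions, with a log2 fold change of 1.88 (edgeR adjusted p = 0.119) and 1.85 with line as a term (edgeR adjusted p = 0.0616). RECK, a membrane-anchored inhibitor of MMP2, MMP14 and other metalloproteases, lay at 15.0 ± 2.17 CPM on MEF and 12.6 ± 2.16 CPM on vitronectin (mean ± SD of 4 lines each), which is a difference of -0.26 on the log2 scale (edgeR adjusted p = 0.449).

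Of the remaining lists, with line as a term, 2 of 5 tested cell-surface serine proteases and inhibitors passed, 1 of 6 ADAM proteases, 2 of 17 ADAMTS proteases, 2 of 5 astacin proteases and enhancers and 1 of 9 cathepsins and cystatins, the last being CST6. These counts stand beside 5.52% of all genes called higher and 4.53% called lower. Higher were the transmembrane serine proteases ST14 (matriptase) and TMPRSS2, the sheddase ADAM9, the proteoglycan-cleaving ADAMTS1 and the procollagen C-proteinase enhancer PCOLCE2, with log2 fold changes of 0.61, 1.12, 0.67, 0.74 and 0.64. Lower were ADAMTS9, a protease of versican and related proteoglycans, and the tolloid-like protease TLL1, with -1.61 and -1.06. ADAMTS9 had 9.82 CPM in the MEF library of line A against 1.65 to 2.20 CPM in the others. In the paired fit MMP3, MMP25, SERPINE2 and CST6 passed whichever line was left out, and 0 of the 9 genes did. How many of all genes did so was not counted. Over all genes, these fits called 742 (without D) to 1651 (without A), against 1582 with all lines.

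**Figure D4:**
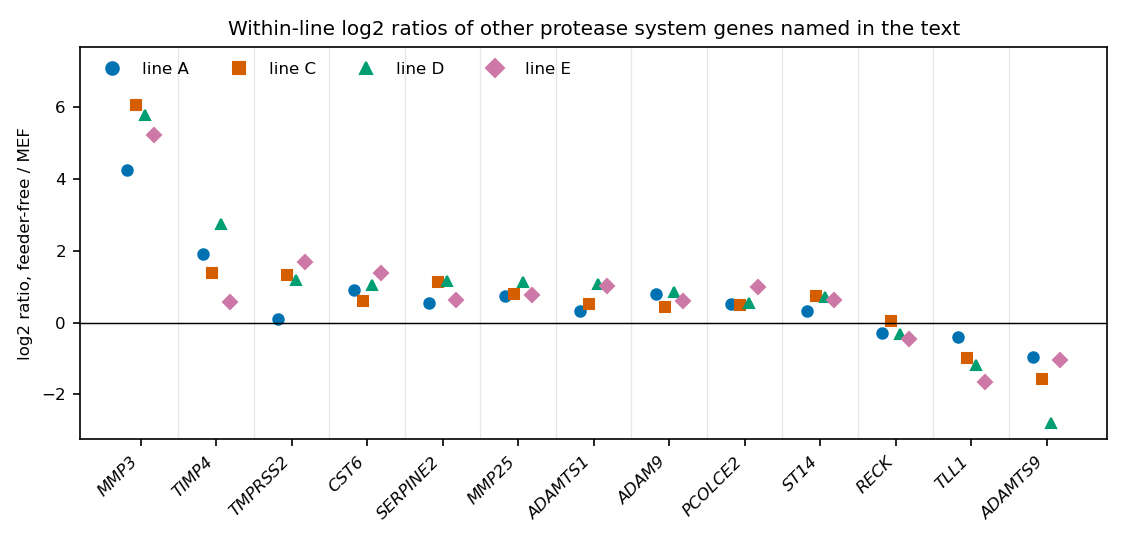
The log2 ratio of feeder-free to MEF (log2 CPM with a prior count of 2) in lines A, C, D and E is plotted for 13 tested genes named from the other protease lists, ordered by their fold change with line as a term. MMP3 is highest in all lines, and the points of MMP25, SERPINE2 and CST6 lie above zero and close together.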

How the data were processed

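The deposited values are raw counts per gene for 8 libraries. Per the labels and the study's methods, paired-end reads were trimmed (Trimmomatic) and mapped by STAR to the bovine assembly ARS-UCD2.0, optical duplicates and poorly mapped reads were discarded, and featureCounts of Subread 1.6.2 assigned the rest to genes. It is not given whether strand was used or whether reads or pairs were the unit, and 71.9% of counts from 1 to 20 were even. For cultures on MEF the methods also describe subtracting reads found in feeder cells alone, a sample not analysed here. Whether the deposited counts had this step applied is not known, which bears on every MEF value and so on every ratio to MEF. Of the 32640 genes, 3 lacked values. Gene spans came from RefSeq.

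Genes were filtered with filterByExpr, libraries scaled by TMM, and condition tested with edgeR 4.0.16 in R 4.3.3 (glmQLFit, glmQLFTest), with P-values adjusted by Benjamini and Hochberg's method across the 15744 genes kept. Calls needed an adjusted P-value below 0.05 together with a fold change of 1.5 or more. Log2 CPM had a prior count of 2, and an SE is the log2 fold change over the root of its F statistic. Each line, 1 biological replicate, was grown in both conditions. The deviations of its 2 libraries from the condition means correlated at 0.421 to 0.664, and those of different lines at -0.523 to 0.249, so a paired model (replicate block) containing line and condition was fitted as well. Libraries of a condition differed by a chi-square per degree of freedom of 43.1 or more, so none was a copy of another.

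Alternatives covered DESeq2's size factors (RLE) and no scaling, other low-count filters, edgeR's likelihood ratio test, DESeq2 1.42.0, voom of limma 3.58.1, other fold change thresholds, and each library or line left out. The 9 genes and the lists were chosen with earlier results of these data known. From the other lists, genes were named that passed on condition alone, the up to 3 per list with the smallest P-values among those passing with line as a term, and SERPINE2, PLG, RECK and TIMP4. Some genes that these rules name are not reported here. The leukocyte markers summed to 0.231 to 0.899 CPM. Levels per exon length were planned and not made, as no exon lengths were used here.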

Additional observations from a re-analysis of the deposited data

Results flagged for a closer look

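Among 48 groups of 4 libraries examined (24 genes in each condition), 2 held a library far from the other 3. A rate of 1 group in 20 would give about 2.4. The 24 genes include ANXA2 and S100A10, picked after their values were seen, so the 2 groups cannot be judged against that rate. The MEF library of line A was highest for ADAMTS9, at 3.30 log2 CPM against 0.76 to 1.16 in the other MEF libraries. The feeder-free library of line D was highest for ANXA2, at 7.43 log2 CPM against -0.06 to 0.68. None of the 9 genes had such a library in either condition.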

How the results depend on the processing

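No log2 fold change of the 9 genes or of the 13 others named changed sign under any alternative that tested it (PLAU, MMP3 and TIMP4 drop out where every library needs 10 counts). Of the genes described beside them, log2 fold changes with a library left out were -1.73 (without line D on vitronectin) to 5.90 for ANXA2 (3.48 with all libraries) and -0.30 (without the same library) to 1.66 for S100A10 (1.25 with all). With the replicate block ANXA2 stayed above 0, at 0.76 to 2.39 with a line left out. In that fit S100A10 was at -0.091, and at -1.37 to 0.94 with a line left out, above 0 without line A (0.56) or E. The number of the 9 genes called, 0 on condition alone, was 2 with the likelihood ratio test (TIMP3 and PLAU), and 3 with DESeq2 and with the replicate block (TIMP2, TIMP3 and PLAU in both), and 0 to 1 when a library was left out. The number of other protease genes called, 2, was 1 with RLE size factors and at a fold change of at least 2, 0 without a filter and with limma-voom, 5 with the likelihood ratio test, 8 with DESeq2, 11 with the replicate block, and 0 to 2 when a library was left out, the 2 being other genes than SERPINE2 and CST6. In the paired fit, leaving out a line gave 0 (without D) to 5 (without A) of the 9 genes in place of 3, and 5 (without D) to 13 (without A) of the others in place of 11. The same fit gave 1 and 6 without line C, and 2 and 11 without line E. Over all genes it called 1651 without line A, 1057 without C, 742 without D and 1159 without E, in place of 1582. The other settings stayed within 1.5 times. Over all genes, 272 were called, 170 without a filter, 174 without scaling, 412 with at least 10 counts in every library, 837 with the likelihood ratio test, 1211 with DESeq2, 1582 with the replicate block, 118 at a fold change of at least 2, and 0 to 490 when a library was left out. The filters and left-out libraries change the number of genes or samples by construction, and elsewhere the cause was not tested. Levels per exon length were not run. Counts of at most 40 per library limit PLAU, MMP3 and TIMP4 on MEF.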
